A study of Mus musculus with 2 samples.

Results

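The type I interferon response was followed through 33 of the 27998 genes measured in liver non-parenchymal cells, which are the immune, endothelial and stromal cells of the liver. The 33 genes were chosen by symbol, as a list of genes known to respond to interferon, and all 33 were found in both libraries. Cells came from mice fed an MCD diet (deficient in methionine and choline) for 8 weeks, and were measured by droplet single-cell RNA sequencing. The study holds 1 library of PKM2FL/FL mice (FL/FL), which carry floxed alleles of the gene for the glycolytic enzyme PKM2, and 1 library of PKM2ΔMAC mice (ΔMAC), named for loss of PKM2 in macrophages. Both genotypes received the same diet. Neither the Cre driver nor the number of mice behind each library is stated in the labels. With 1 library per genotype there is no replicate and no test between genotypes. Every difference below is one between these 2 libraries, and every interval in parentheses is an exact 95% interval for counting error alone. Intervals of ratios take no account of the spread between cells.

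Type I interferons (interferon alpha and beta) bind the receptor made of Ifnar1 and Ifnar2. The receptor signals through a complex that includes Stat2 and Irf9 and binds a DNA element called ISRE in the promoters of interferon-stimulated genes. These genes encode antiviral effectors, nucleic acid sensors and feedback regulators, and many of them also respond to interferon gamma. In the liver, Kupffer cells, monocytes and plasmacytoid dendritic cells are known as both sources and targets of interferon.

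Promoters were read first, because the ISRE is the element through which the receptor acts on these genes. Of the 33 members, 25 had a start site in the RefSeq promoter table of build GRCm38.p6, giving 28 windows of 300 bases (250 before and 50 after the start). Ifi204, Ifi27l2a, Mx1, Oas2, Parp14, Rtp4, Usp18 and Zbp1 had no entry. A core ISRE was searched as GAAA, any 2 bases and GAAA again, or on the other strand TTTC, any 2 bases and TTTC, with overlapping matches counted. It was present in the windows of 15 member genes (16 of the 28 windows), against 3.44% of all 32851 windows. The 4 promoters below belong to strongly induced members used later to recognise responding cells. Each is the stretch before the start site, 5′ to 3′ on the gene's strand, from RefSeq, and capitals mark ISRE letters.
Isg15, chr4:156200819-156200968, minus strand: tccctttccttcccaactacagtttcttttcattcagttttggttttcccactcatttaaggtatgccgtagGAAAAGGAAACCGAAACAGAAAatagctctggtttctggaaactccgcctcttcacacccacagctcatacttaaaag
Ifit1, chr19:34640739-34640888, plus strand: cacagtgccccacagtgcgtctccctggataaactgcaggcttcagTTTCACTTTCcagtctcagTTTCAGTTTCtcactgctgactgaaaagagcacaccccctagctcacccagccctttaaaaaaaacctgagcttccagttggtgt
Ifit3, chr19:34583363-34583528, plus strand: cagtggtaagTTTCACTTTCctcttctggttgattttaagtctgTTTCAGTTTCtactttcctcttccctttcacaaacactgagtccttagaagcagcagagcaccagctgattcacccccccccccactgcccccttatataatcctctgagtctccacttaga
Rsad2, chr12:26456453-26456602, minus strand: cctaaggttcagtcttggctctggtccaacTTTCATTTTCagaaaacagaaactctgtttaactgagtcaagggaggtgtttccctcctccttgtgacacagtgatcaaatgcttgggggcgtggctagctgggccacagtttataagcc
Isg15 has 3 overlapping matches in a single run, the nearest beginning 66 bases before the start. Ifit1 and Ifit3 have 2 separate matches each. Rsad2 has 1 match, beginning 120 bases before its start. No match was found in the windows of Ifit2 and Oasl1, which speaks only of those letters in those windows.

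Of the 10054 FL/FL and 8949 ΔMAC barcodes, 9529 and 8547 cells were kept, with median depths of 4392 and 3719 UMIs (unique molecular identifiers, 1 per captured transcript). The libraries share 17 barcodes. Cells were typed by marker genes, so names end in "-like", and 6.99% and 6.59% of cells stayed untyped. The 11 types with at least 50 cells in each library were compared. Their defining markers were present: Clec4f in 72.7% and 80.0% of Kupffer-like cells, Siglech in 98.2% and 95.1% of plasmacytoid dendritic-like cells, and Csf3r in 96.5% and 96.4% of neutrophil-like cells. In the CD4 T-like gate, 54 of 366 and 31 of 148 cells held the minimum of 2 lineage markers. Agreement with clusters computed without the members was lowest for other T-like cells. There 46.3% and 53.5% of cells lay in a cluster of the same type, against 68.6% and 77.0% of CD4 T-like cells. UMIs were summed per type and library and scaled to CPM, the count for every 1000000 UMIs of the type. A member counts as measured in a type where its UMIs from the pair of libraries reach 50, and as higher or lower in ΔMAC at 1.5-fold. Because 3′ UMI counts tally transcripts, CPM values carry no length factor.

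Members past 1.5-fold were mostly higher in ΔMAC in Kupffer-like, monocyte or macrophage-like, plasmacytoid dendritic-like and neutrophil-like cells, and mostly lower in T and NK types. Conventional dendritic-like cells had about as many higher as lower. In monocyte or macrophage-like cells, 16 of 32 measured members were higher and 2 lower, where 6.01% and 9.53% of all measured genes were. Without the cells holding UMIs of the macrophage genes Gpnmb or Trem2, an alternative added after the data were seen, 6 of 27 were higher and 4 lower. The member median log2 ratio was then 0.29 in place of 0.59, beside an all-gene median of -0.01 in those cells. The share of all genes past 1.5-fold was not computed for those cells. In plasmacytoid dendritic-like cells, 11 of 23 were higher and 0 lower (8.15% and 7.97% of all genes). Proteasome subunits, listed as genes of another function, were also higher in that type, with 6 of 14 past 1.5-fold and a median log2 ratio of 0.50, and their part in the result was not tested. In monocyte or macrophage-like cells 0 of 14 proteasome subunits passed 1.5-fold. In neutrophil-like cells, 6 of 26 were higher and 1 lower (2.27% and 28.1% of all genes). In Kupffer-like cells, 4 of 9 were higher and 0 lower (8.93% and 9.67% of all genes), and in conventional dendritic-like cells 3 of 28 were higher and 4 lower (5.27% and 11.1% of all genes). In CD4 T-like cells, 2 of 25 were higher and 14 lower (6.2% and 12.2% of all genes), but with cells typed by clusters the member median there was -0.06 in place of -0.77. The clusters left out the members but not other interferon-induced genes, so this typing is not free of the response. NK or ILC1-like cells had 0 higher and 6 lower of 31 (2.73% and 5.17% of all genes), CD8 T-like cells 0 and 5 of 28 (2.38% and 10.7%), and other T-like cells 0 and 7 of 28 (4.67% and 8.73%). B-like cells had 2 higher and 4 lower of 26 (2.59% and 6.22% of all genes), and endothelial-like cells 2 and 0 of 6 (10.4% and 7.49%).

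**Figure D1:**
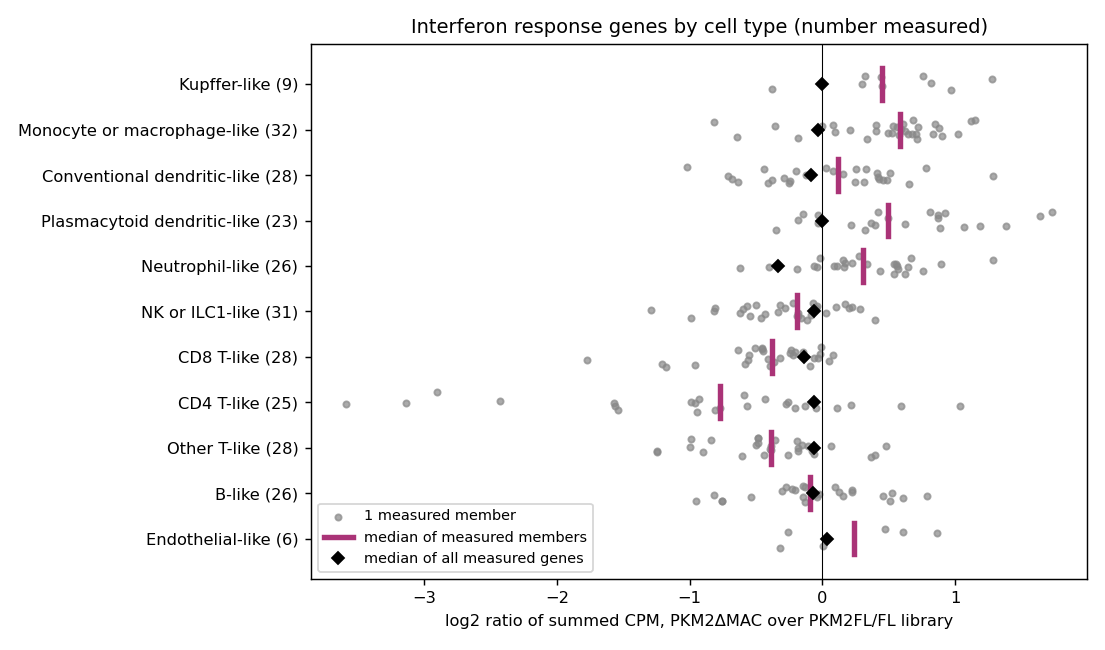
Log2 ratio of summed CPM (ΔMAC over FL/FL) for each measured member (grey points), their median (bar) and the median of all measured genes (diamond) in 11 cell types. The member median is above the all-gene median in Kupffer-like, monocyte or macrophage-like, dendritic-like and neutrophil-like cells, and below it in NK and T types.

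The member medians order the types in the same way. The median log2 ratio was 0.59 in monocyte or macrophage-like cells (all measured genes -0.03), 0.50 in plasmacytoid dendritic-like cells (all genes -0.0015) and 0.45 in Kupffer-like cells (all genes -0.0046). It was 0.31 in neutrophil-like cells, where the median of all genes was -0.33, and 0.64 after scaling to that median. Conventional dendritic-like cells had a median of 0.12 (all genes -0.09). In B-like cells the median was -0.09 (all genes -0.07). On the other side stood NK or ILC1-like cells at -0.19 (all genes -0.06), CD8 T-like cells at -0.38 (all genes -0.14), other T-like cells at -0.39 (all genes -0.07) and CD4 T-like cells at -0.77 (all genes -0.06), or -0.06 by clusters. Endothelial-like cells had 6 measured members, a median of 0.24, and unequal depth (1638 against 861.5 UMIs per cell).

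Levels of the most abundant members show which types hold most member transcripts. Ifitm3, a membrane protein that blocks virus entry, reached 3196 CPM in FL/FL and 5200 CPM in ΔMAC monocyte or macrophage-like cells, against 26.8 and 23.5 CPM in NK or ILC1-like cells. Its relative Ifitm2 peaked in neutrophil-like cells at 4527 and 6122 CPM. Bst2 (tetherin), which holds budding virus at the cell surface, peaked in plasmacytoid dendritic-like cells at 4036 and 3558 CPM. Ifi27l2a, a small interferon-induced membrane protein, peaked in Kupffer-like cells at 1232 and 1671 CPM. These 4 genes hold most member UMIs in the myeloid and plasmacytoid types. Among lymphocytes, the most abundant members of NK or ILC1-like cells were Trim30a (118 and 111 CPM), Isg15 (103 and 74.8 CPM) and Parp14 (87.6 and 70.2 CPM). CD8 T-like cells were led by Ifi27l2a (199 and 180 CPM), Trim30a (104 and 90.6 CPM) and Bst2 (94.1 and 93.6 CPM). Ifi27l2a also led CD4 T-like (641 and 968 CPM), other T-like (230.0 and 219.8 CPM) and B-like cells (275 and 397 CPM), with Isg15 and Trim30a next in both T types of the FL/FL library and Trim30a next in B-like cells. Endothelial-like cells held Ifitm2 at 2997 and 4162 CPM, Ifitm3 at 2735 and 2749 CPM and Bst2 at 1449 and 1164 CPM. The summed level of all 33 members was 7240 CPM in FL/FL monocyte or macrophage-like cells and 8029 CPM in FL/FL neutrophil-like cells, but 1055 CPM in FL/FL NK or ILC1-like cells and 926 CPM in FL/FL B-like cells.

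Transcription factors of the response split. Irf7, which amplifies interferon production, was above 0 in all 5 myeloid and plasmacytoid types. It stood at 178 CPM in FL/FL and 262 CPM in ΔMAC monocyte or macrophage-like cells (ratio 1.48, 1.26 to 1.73), at 103 and 153 CPM in neutrophil-like cells (ratio 1.49, 1.22 to 1.82) and at 536 and 670 CPM in Kupffer-like cells (ratio 1.251, 0.964 to 1.63). In CD4 T-like cells it was 48.4 CPM in FL/FL and 24.4 CPM in ΔMAC. Stat2 and Irf9, members of the complex that binds the ISRE, did not share the myeloid direction. Stat2 was 51.3 and 29.1 CPM in monocyte or macrophage-like cells (ratio 0.568, 0.363 to 0.863), and lay below 0 in all 4 myeloid and plasmacytoid types where it was measured. Irf9 lay above 0 in 1 of 4 such types, with a log2 ratio of -0.35 in plasmacytoid dendritic-like and -0.19 in neutrophil-like cells.

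The ISG15 system comprises the ubiquitin-like modifier Isg15, the protease Usp18 that removes it and dampens the receptor, and the ligase Herc6. Isg15 was 129 CPM in FL/FL and 237 CPM in ΔMAC monocyte or macrophage-like cells (ratio 1.84, 1.54 to 2.20), and 50.8 and 133 CPM in plasmacytoid dendritic-like cells (ratio 2.61, 1.88 to 3.71). Neutrophil-like cells held the highest level, 294 and 282 CPM, with almost no difference (ratio 0.957, 0.842 to 1.09). In lymphocytes it went the other way, from 179 to 60.3 CPM in CD4 T-like cells (ratio 0.337, 0.247 to 0.451) and from 103 to 74.8 CPM in NK or ILC1-like cells (ratio 0.725, 0.661 to 0.795). In Kupffer-like cells Isg15 rests on 15 and 43 UMIs, with a log2 ratio of 1.28 that became -0.49 with cells typed by clusters and -0.15 as a mean of the cells' own CPM. Usp18 was higher in plasmacytoid dendritic-like cells (19.6 and 44.7 CPM, ratio 2.28, 1.32 to 4.13) and lower in other T-like cells (log2 ratio -1.247). Herc6 was higher in monocyte or macrophage-like cells (log2 ratio 0.65) and stood at -0.40 in neutrophil-like cells.

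The IFIT family, tetratricopeptide proteins that bind foreign RNA, showed the widest contrast between types. In monocyte or macrophage-like cells Ifit1 was 39.9 CPM in FL/FL and 65.3 CPM in ΔMAC, Ifit2 was 38.0 and 50.2 CPM, and Ifit3 was 37.1 and 53.3 CPM. The ratios were 1.64 (1.17 to 2.29) for Ifit1, 1.32 (0.91 to 1.91) for Ifit2 and 1.44 (0.99 to 2.06) for Ifit3. These UMIs lie in few cells, with Ifit1 in 5.13% of FL/FL and 10.3% of ΔMAC cells. The intervals take no account of that, so they do not set Ifit1 apart from the others. Ifit1 in neutrophil-like cells went from 48.7 to 119 CPM (ratio 2.44, 1.88 to 3.20). In CD8 T-like cells all 3 were lower, with log2 ratios of -0.96 for Ifit1, -1.18 for Ifit2 and -0.63 for Ifit3. CD4 T-like cells held 122 UMIs of Ifit3 in FL/FL and 4 in ΔMAC (55.7 and 4.64 CPM, ratio 0.0832, 0.0223 to 0.219). With CD4 T-like cells taken from clusters, the log2 ratio of Ifit3 shrank from -3.59 to -0.42. Ifit3 reads may be divided with its near-identical copy Ifit3b.

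The OAS family makes a second messenger from double-stranded RNA, or, in the Oasl genes, acts without that activity. In monocyte or macrophage-like cells Oas3 (29.5 and 65.3 CPM, ratio 2.22, 1.54 to 3.19) and Oas1a (25.2 and 51.2 CPM, ratio 2.04, 1.36 to 3.05) were higher. Oas2 (27.6 and 29.1 CPM) and Oasl1 (27.1 and 34.2 CPM) were near equal, and Oasl2 was 71.7 and 103.5 CPM. Oasl2 peaked in neutrophil-like cells at 143 and 242 CPM (ratio 1.69, 1.44 to 1.995). Oasl1 was lower in CD8 T-like cells, at 5.41 and 2.34 CPM (log2 ratio -1.21). Oas1a may share reads with Oas1g, and Oas2 was measured in 3 of 11 types only.

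Among nucleic acid sensors, Ifih1 and Ddx58 recognise viral RNA, while Zbp1, Ifi204 and Ifi205 bind nucleic acids in cytosol or nucleus. Ddx58 (log2 ratio -0.64) and Ifih1 (-0.36) were among the 3 lowest members of monocyte or macrophage-like cells, beside Stat2. Zbp1 stood at 75.1 and 116 CPM there (ratio 1.54, 1.2 to 1.97), and Ifi204 at 227 and 343 CPM (ratio 1.51, 1.31 to 1.74). Ifi205 was 84.0 CPM in FL/FL and 205 CPM in ΔMAC conventional dendritic-like cells (ratio 2.44, 1.998 to 2.99), the largest difference of that type. NK or ILC1-like cells held less Ifi204, 14.4 against 5.88 CPM (ratio 0.409, 0.297 to 0.555). In CD4 T-like cells Ifih1 had 57 UMIs in FL/FL and 3 in ΔMAC. Ifi204 and Ifi205 are close relatives, so their counts are uncertain where reads could map to both.

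The membrane restriction factors were alike in monocyte or macrophage-like cells, where all 3 were higher: Ifitm2 with a ratio of 1.61 (1.51 to 1.71), Ifitm3 with 1.63 (1.57 to 1.69) and Bst2 with 1.65 (1.398 to 1.95). Ifitm2 was also above 0 in NK or ILC1-like (log2 ratio 0.29), CD4 T-like (1.04), other T-like (0.48) and B-like cells (0.61), unlike most members in those lymphocytes. Free RNA from neutrophils, which hold the highest level of Ifitm2, was not subtracted, and its part in the lymphocyte values was not tested. Ifitm3 in plasmacytoid dendritic-like cells was 37.0 and 115 CPM (log2 ratio 1.64). Bst2 there was slightly lower in ΔMAC (log2 ratio -0.18).

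Remaining effectors were Rsad2 (viperin, which blocks virus replication), its neighbour Cmpk2, the GTPase Mx1, and the regulators Trim30a, Slfn5 and Parp14. Rsad2 was 84.1 and 183 CPM in monocyte or macrophage-like cells (ratio 2.17, 1.76 to 2.69), 183 and 266 CPM in neutrophil-like cells (ratio 1.46, 1.255 to 1.69) and 38.1 and 80.0 CPM in plasmacytoid dendritic-like cells. Mx1 did not follow, with 62.7 and 55.3 CPM in monocyte or macrophage-like cells. Slfn5 was lower in all 4 T and NK types, from 26.8 to 7.81 CPM in CD8 T-like cells (ratio 0.292, 0.214 to 0.394). It was also lower in conventional dendritic-like (log2 ratio -0.71) and B-like cells (-0.82). Trim30a and Parp14 were within 1.5-fold in every type where they were measured except Trim30a in monocyte or macrophage-like cells (log2 ratio 0.61). Cmpk2 reached 0.56 in neutrophil-like cells.

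Of the other members, Ifi35, Xaf1, Rtp4 and Ifi27l2a were all higher in monocyte or macrophage-like cells, with log2 ratios of 0.83, 0.85, 0.90 and 0.67. Ifi44 was measured in 2 types, and in plasmacytoid dendritic-like cells it went from 24 to 138 UMIs (27.7 and 92.0 CPM, ratio 3.32, 2.14 to 5.36), the largest log2 ratio of that type (1.73). Rtp4, a Golgi chaperone of receptors, was -0.38 in Kupffer-like cells. Ifi27l2a was above 0 in B-like (0.53), CD4 T-like (0.60) and NK or ILC1-like cells (0.40).

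The members at the ends of each type's range were as follows. In neutrophil-like cells Ifit1 (log2 ratio 1.29), Bst2 (0.90) and Oasl2 (0.76) were highest, and Stat2 (-0.62), Herc6 (-0.40) and Irf9 (-0.19) lowest. Kupffer-like cells were led by Isg15, Zbp1 (0.97) and Ifitm3 (0.82). Conventional dendritic-like cells ran from Ifi205 (1.29), Xaf1 (0.78) and Rtp4 (0.65) down to Ifih1 (-0.68), Slfn5 (-0.71) and Ifit1 (-1.02). In NK or ILC1-like cells Ifi204 (-1.29), Ifit1 (-0.99) and Ifit3 (-0.82) were lowest and Ifi27l2a (0.40), Ifitm2 (0.29) and Oas3 (0.22) highest. CD8 T-like cells ran from Slfn5 (-1.78), Oasl1 and Ifit2 to Cmpk2 (0.08), Ifi35 (0.05) and Bst2 (-0.0074). Other T-like cells ran from Ifit2 (-1.249), Usp18 and Mx1 (-0.999) to Ifitm2, Oas1a (0.39) and Oasl2 (0.37). CD4 T-like cells had Ifit3, Mx1 (67 and 3 UMIs, -3.14) and Ifih1 (-2.90) at the low end. In B-like cells Ifit2 (-0.95), Slfn5 and Ifit3 (-0.75) were lowest, and Oas3 (0.79), Ifitm2 and Ifi27l2a highest. Endothelial-like cells ran from Rsad2 (0.86) and Isg15 (0.61) to Bst2 (-0.32), and both leaders turned below 0 as a mean of the cells' own CPM (-0.14 and -0.18).

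**Figure D2:**
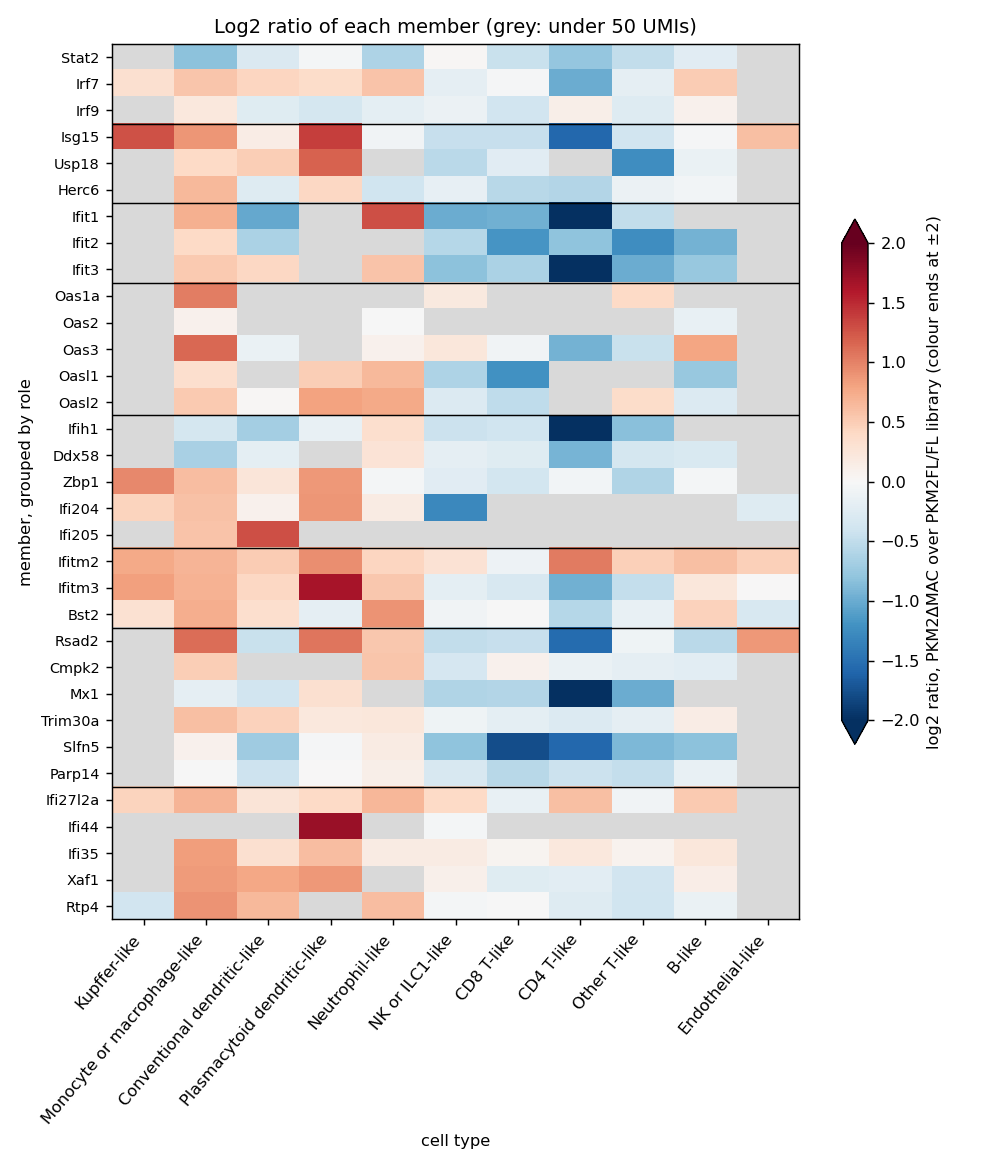
Log2 ratio (ΔMAC over FL/FL) of each of the 33 members, in rows grouped by role, in 11 cell types. Grey cells had under 50 UMIs; red dominates the myeloid columns and blue the NK and T columns, with Ifit1, Ifit3, Mx1 and Ifih1 in CD4 T-like cells beyond the colour end of -2.

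Whether a few cells or all cells of a type carry the response was read from single cells thinned to 1000 UMIs each. Most cells of the myeloid types held a UMI of some member, which there are mostly those of the 4 abundant genes. At least 1 of 7 strongly induced members (Isg15, Ifit1, Ifit2, Ifit3, Rsad2, Oasl1 and Usp18) was found in 11.97% of FL/FL and 23.2% of ΔMAC monocyte or macrophage-like cells, and in 23.3% and 28.8% of neutrophil-like cells. The share was lowest in B-like cells, at 4.36% and 2.80%. Monocyte or macrophage-like cells had a median of 6 member UMIs in FL/FL and 10 in ΔMAC, and neutrophil-like cells 7 and 10. No ΔMAC cell of those types had 0 member UMIs. The 90th percentile was 13 and 18 UMIs in monocyte or macrophage-like cells, and cells with 10 to 19 member UMIs made up 19.2% of FL/FL and 45.6% of ΔMAC cells. Lymphocytes differed. NK or ILC1-like cells had a median of 1 member UMI in both libraries, with 46.8% and 47.0% of cells at 0, and B-like cells had 48.7% and 44.4% at 0. In CD4 T-like cells 32.0% and 25.7% were at 0.

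**Figure D3:**
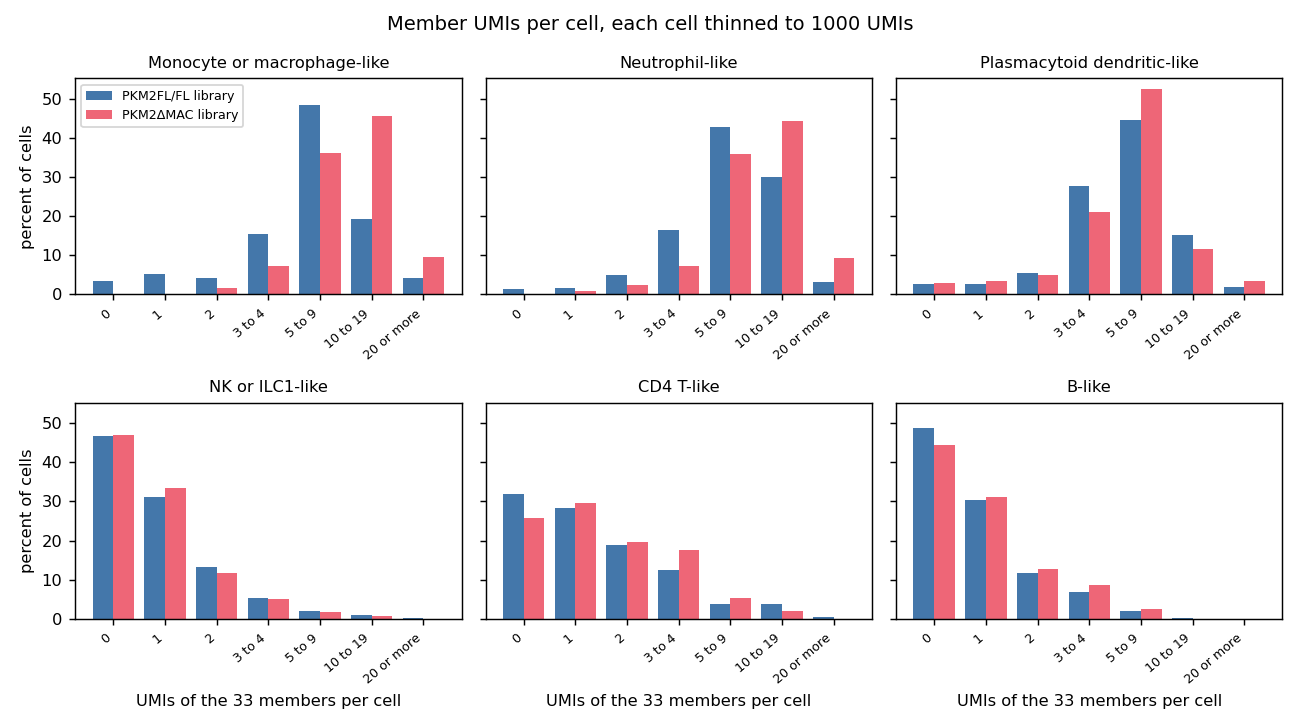
Percent of cells by number of UMIs of the 33 members per cell, each cell thinned to 1000 UMIs, for 6 cell types and both libraries. Monocyte or macrophage-like and neutrophil-like cells peak at 5 to 19 UMIs and lie further right in ΔMAC, while NK, CD4 T and B types peak at 0 or 1 in both libraries.

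Response-carrying cells were defined as cells with UMIs of at least 2 of these 7 members. Among neutrophil-like cells their share was 5.75% (4.12 to 7.78) of 678 FL/FL cells and 9.21% (7.14 to 11.7) of 673 ΔMAC cells. Without thinning it was 10.5% and 18.1%. Plasmacytoid dendritic-like cells had 1 such cell of 112 in FL/FL and 11 of 200 in ΔMAC (0.893% and 5.50%). The intervals overlap in both of these types. In monocyte or macrophage-like cells the shares were 3.42% and 5.6%, with intervals that overlap. In the lymphoid types the shares went the other way: 2.53% (1.94 to 3.26) and 1.59% (1.05 to 2.30) in NK or ILC1-like cells, 2.79% and 1.70% in CD8 T-like cells, 5.23% and 2.03% in CD4 T-like cells, and 2.43% and 1.80% in other T-like cells. All 4 pairs of intervals overlap. With cells typed by clusters, the FL/FL shares of all 4 types left their gated intervals. They fell in NK or ILC1-like, CD4 T-like and other T-like cells and rose in CD8 T-like cells. Endothelial-like cells went from 12.8% to 2.44%, with few cells deep enough to be thinned. B-like cells had the lowest shares, 0.237% and 0.178%, at median depths of 3150 and 2724 UMIs before thinning. No type is known to lack an interferon response, so the B-like share stands only as the lowest measured.

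**Figure D4:**
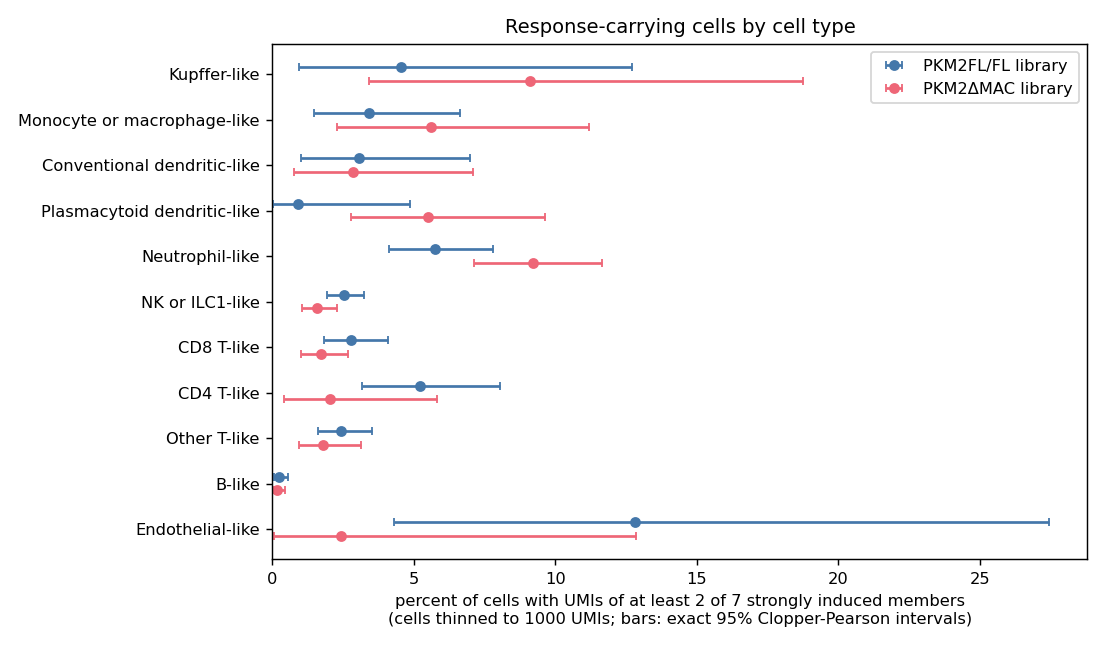
Percent of cells with UMIs of at least 2 of 7 strongly induced members in each cell type and library, after thinning to 1000 UMIs, with exact 95% intervals. ΔMAC points lie right of FL/FL points in neutrophil-like and plasmacytoid dendritic-like cells and left of them in NK and T types. Cells are typed by marker genes, and the FL/FL shares of NK and T types moved when cells were typed by clusters.

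The carrying rule uses 7 members, which leaves 26 that it does not use, read in the same cells. These 26 come from the same list of genes known to respond to interferon, so they are not independent of the rule. A higher sum in carrying cells was likely from the choice of genes and is no separate test of the response. The ratios give its size. In NK or ILC1-like cells these 26 summed to 6075 CPM in 59 carrying FL/FL cells against 722 CPM in the others, a ratio of 8.41 (8.01 to 8.83). The ratio was 7.45 in CD8 T-like and 5.86 in CD4 T-like FL/FL cells. Contrasts of this sum were smaller in myeloid cells: 3.47 in monocyte or macrophage-like and 2.21 (2.09 to 2.34) in neutrophil-like FL/FL cells. Gene by gene, the monocyte contrast was not smaller. Over members of the 26 with at least 50 UMIs, the median ratio was 8.44 in monocyte or macrophage-like and 5.73 in neutrophil-like FL/FL cells. It was 8.31 in NK or ILC1-like, 8.65 in CD8 T-like and 8.13 in CD4 T-like FL/FL cells. In NK or ILC1-like FL/FL cells Ifi204 and Mx1 differed most between carrying and other cells, with Ifi204 41.9-fold and Mx1 39.4-fold higher. Mx1 and Slfn5 led in CD8 T-like cells of both libraries, and Cmpk2 (21.4-fold) in neutrophil-like FL/FL cells. Ifitm2 was 1.10-fold (0.998 to 1.22) in carrying over other neutrophil-like FL/FL cells and 2.58-fold (1.21 to 4.90) in other T-like FL/FL cells. In NK or ILC1-like FL/FL cells its ratio rests on 4 UMIs in carrying cells (0.692, 0.187 to 1.795). Proteasome subunits were 2039 and 2199 CPM in carrying and other NK or ILC1-like FL/FL cells and 1183 and 1168 CPM in neutrophil-like ones. They were higher in carrying cells of some other FL/FL types, at 2705 and 2018 CPM in other T-like, 4295 and 3001 CPM in Kupffer-like (3 carrying cells) and 4007 and 1603 CPM in B-like FL/FL cells (5 carrying cells). Elsewhere they were lower in carrying cells, at 2090 and 2220 CPM in CD4 T-like FL/FL cells. In ΔMAC they were 1874 and 3708 CPM in Kupffer-like and 1602 and 2591 CPM in conventional dendritic-like cells.

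With full counts, 8.40% of FL/FL and 7.14% of ΔMAC NK or ILC1-like cells met the rule, and they held 11.7% and 8.83% of all UMIs of the type. They held 65.8% and 56.7% of the UMIs of the 7 genes and 32.7% and 24.6% of those of the 26. When these cells were left out, an alternative added after the data were seen, the median log2 ratio over 23 members of the 26 went from -0.16 to 0.08 in NK or ILC1-like cells. In CD4 T-like cells it went from -0.27 to 0.17 over 14 members. CD8 T-like (-0.24 to -0.17, 20 members) and other T-like cells (-0.31 to -0.18, 20 members) had medians below 0, beside all-gene medians of -0.14 and -0.06 in the same cells. Monocyte or macrophage-like cells went from 0.61 to 0.67 over 20 members, and conventional dendritic-like cells from 0.25 to 0.30. In plasmacytoid dendritic-like (0.38 to 0.32) and neutrophil-like cells (0.31 to 0.15) the difference remained with a smaller size.

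Since Ifitm2, Ifitm3, Bst2 and Ifi27l2a outweigh all others in a sum, the remaining 22 of the 26 were summed apart, a choice made after the levels were seen. Without carrying cells, the ratio of this sum was 1.48 (1.36 to 1.603) in monocyte or macrophage-like, 1.30 (1.19 to 1.41) in conventional dendritic-like, 1.19 (1.09 to 1.29) in plasmacytoid dendritic-like and 1.16 (1.08 to 1.247) in neutrophil-like cells. It was 0.974 (0.937 to 1.01) in NK or ILC1-like, 1.05 (0.930 to 1.17) in CD4 T-like, 0.890 (0.842 to 0.941) in CD8 T-like and 0.826 (0.774 to 0.880) in other T-like cells. In Kupffer-like cells it was 1.39 with all cells and 0.990 (0.835 to 1.17) without carrying cells. There 15 carrying ΔMAC cells, with a median of 3217 UMIs against 996 in the others, held 50% of these UMIs and 29.45% of all UMIs of the type.

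**Figure D5:**
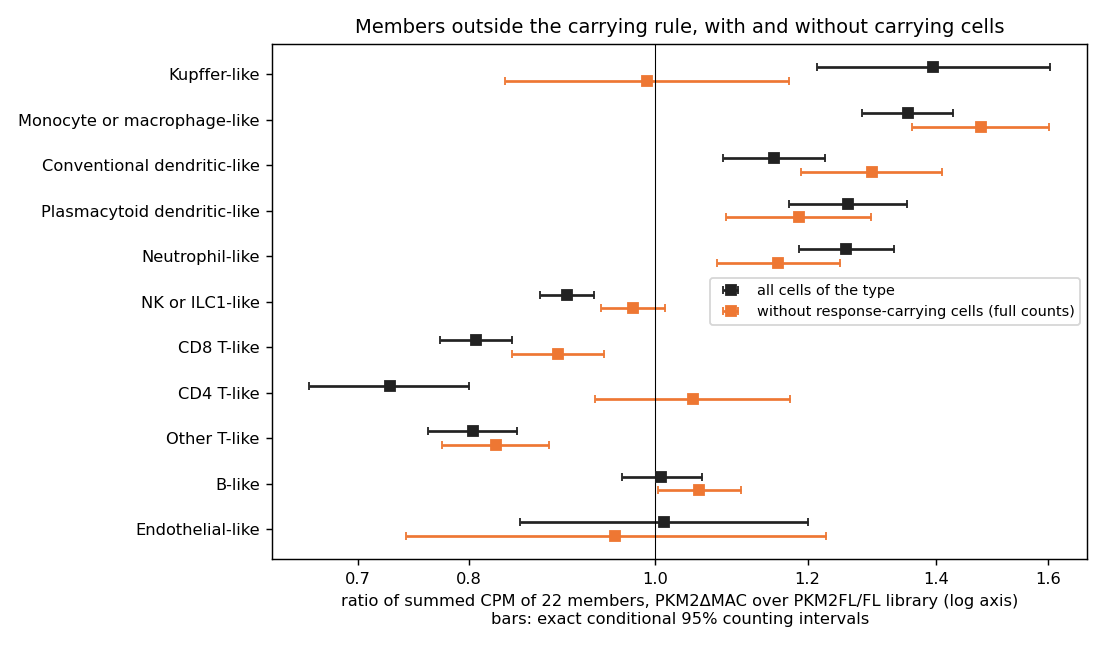
Ratio (ΔMAC over FL/FL) of the summed CPM of 22 members outside the carrying rule, for all cells and without carrying cells by full counts, with exact 95% counting intervals on a log axis. Without carrying cells, 4 myeloid and plasmacytoid types stay above 1, Kupffer-like, NK and CD4 T-like cells lie at about 1, and CD8 and other T-like cells stay below 1.

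The rest of the pathway was listed beside the members. Interferon transcripts other than Ifng were close to absent. Ifnb1, Ifna2 and Ifnab had 1 UMI each, all in ΔMAC, and every other interferon alpha gene had 0. Ifnz had 9 UMIs in FL/FL and 5 in ΔMAC, and Ifnk had 1 in each. At these counts the depth allows no comparison. Ifng, the interferon of NK and T cells, had 10986 UMIs in FL/FL and 7763 in ΔMAC. Its level was 437 and 526 CPM in NK or ILC1-like cells, 301 and 107 CPM in CD4 T-like cells (ratio 0.354, 0.282 to 0.441) and 221 and 143 CPM in CD8 T-like cells (ratio 0.647, 0.598 to 0.701). Receptor genes Ifnar1 and Ifnar2 were within 1.5-fold in every type where they were measured except Kupffer-like cells, where Ifnar2 was 289 and 186 CPM.

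Of 36 further interferon-induced genes in the files, 27 were measured in monocyte or macrophage-like cells, of which 8 were higher and 0 lower (6.01% and 9.53% of all genes), led by the chemokine Cxcl10 (315 and 699 CPM, ratio 2.22, 1.99 to 2.47) and Mndal (log2 ratio 1.04). In CD4 T-like cells 0 of 27 were higher and 13 lower (6.2% and 12.2% of all genes), with Eif2ak2 at -1.67 and Cxcl10 at -1.46. Pathway values of CD4 T-like cells, Ifng among them, come from the same gate as the member values. They were not recomputed with cells typed by clusters, which made the member median there much smaller in size. Plasmacytoid dendritic-like cells had 2 higher and 1 lower of 23 (8.15% and 7.97% of all genes), where 11 of 23 members were higher. NK or ILC1-like cells had 0 and 1 of 28 (2.73% and 5.17%). Conventional dendritic-like cells had 2 and 5 of 27 (5.27% and 11.1%). CD8 T-like cells had 0 and 10 of 30 (2.38% and 10.7%), and other T-like cells 0 and 10 of 29 (4.67% and 8.73%). B-like cells had 1 and 1 of 26 (2.59% and 6.22%), and Kupffer-like cells 1 and 0 of 9 (8.93% and 9.67%). Neutrophil-like cells had 2 higher and 6 lower of 22, a lower share near the 28.1% of all genes in that type, and Cxcl10 there was 67.3 and 28.6 CPM, against the direction of most members in that type. Tlr7, an RNA sensor upstream of interferon, was 38.5 and 123 CPM in monocyte or macrophage-like cells (ratio 3.19, 2.39 to 4.27) and 90.1 and 180 CPM in plasmacytoid dendritic-like cells (ratio 1.999, 1.55 to 2.61). It was also higher in CD8 T-like (log2 ratio 1.71) and B-like cells (1.15), where members were not mostly higher. Of the genes weighted to interferon gamma, 12 were measured in CD4 T-like cells, with 6 lower (12.2% of all genes) and 0 higher. Monocyte or macrophage-like cells had 2 higher and 2 lower of 11, and B-like cells 1 and 0 of 12. There were 0 and 3 of 14 in NK or ILC1-like, 1 and 3 of 14 in CD8 T-like and 0 and 3 of 13 in other T-like cells. Conventional dendritic-like cells had 0 and 3 of 7, neutrophil-like cells 0 and 2 of 7 and plasmacytoid dendritic-like cells 0 and 0 of 5. The shares of all genes are those given above.

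Other measurements bear on the makeup of the types. The monocyte or macrophage-like cells without Gpnmb and Trem2 UMIs numbered 158 in FL/FL and 92 in ΔMAC. Of the 53 carrying FL/FL cells in the CD4 T-like gate by full counts, 23 lay in a CD4 T-like cluster, against 251 of all 366 FL/FL cells of the gate. Typing by clusters thus moved part of the carrying cells to other types. In the other T-like gate, 35 of 107 carrying FL/FL cells and 11 of 43 carrying ΔMAC cells lay in an other T-like cluster. Whether a shift in the makeup of these types accounts for the differences was not tested.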

How the data were processed

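Raw UMI counts for every gene in every barcode were deposited by the authors. The software named in the file headers is Cell Ranger 6.0.0. The submitters' processing notes also name mm10 and Seurat 4.3.0, with no role given. Free RNA was not subtracted. Cells with at least 300 genes and under 20% mitochondrial UMIs were kept, and doublets were removed with Scrublet (expected rate 0.08, in scanpy 1.11.5). A cell was typed where it held UMIs of at least 2 markers of a lineage and of at least 2 times as many as of any other. Counts were summed per type and library. Ratios carry exact conditional binomial intervals, sums exact Poisson intervals and shares Clopper-Pearson intervals, all at 95%. Members needed 50 UMIs over both libraries, higher or lower means 1.5-fold, and cells were thinned to 1000 UMIs for shares. The procedure was tested on simulated data. The rule for naming took the 3 measured members with the highest ratio, the 3 with the lowest and the 3 most abundant in each type. Members, lists and rules were chosen with earlier results of these data known. Alternatives varied the gate, clusters, UMI minimum, scaling, doublets, mitochondrial limit, fold and thinning depth.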

Additional observations from a re-analysis of the deposited data

Results flagged for a closer look

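The median log2 ratio of the members (ΔMAC over FL/FL) had opposite signs in different cell types of the same 2 libraries. It was above 0 in monocyte or macrophage-like (0.59), plasmacytoid dendritic-like (0.50), neutrophil-like (0.31) and conventional dendritic-like cells (0.12). It was below 0 in NK or ILC1-like (-0.19), CD8 T-like (-0.38), other T-like (-0.39) and CD4 T-like cells (-0.77, but -0.06 with cells typed by clusters). The difference between the types was not tested, since each genotype has 1 library.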

How the results depend on the processing

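No paired analysis was possible because each genotype has 1 library, and for the same reason no replicate could be left out. Of the recomputed medians 74 stayed within counting error, 14 moved and 3 changed sign. Of the recomputed shares, 72 stayed within their interval and 60 did not. Results without cells holding Gpnmb, Trem2, Irg1 or Slc7a11 were added after seeing the data. Where a value moved, the cause was not tested. Counts at other folds use the same measured members as at 1.5-fold. The share of all genes was not computed at other folds or at 20 UMIs. Those counts show how the rule acts and are no result about the members. With cells typed by clusters, the log2 ratio was -0.49 for Isg15 in Kupffer cells. With cells typed by clusters, the median was 0.79 in plasmacytoid, -0.58 in CD8 T, -0.063 in CD4 T, -0.56 in other T, 0.0029 in B and -0.10 in endothelial cells. With cells typed by clusters, the carrying share was 1.75% in NK or ILC1 FL/FL, 5.07% in CD8 T FL/FL, 2.16% in CD4 T FL/FL, 1.37% in other T FL/FL and 0.849% in other T ΔMAC cells. With 20 UMIs as the minimum, the median was 0.79 in Kupffer cells. With 20 UMIs as the minimum, the number of higher members was 13 in Kupffer cells. With 20 UMIs as the minimum, the number of lower members was 4 in endothelial cells. With no UMI minimum, the median was 0.82 in Kupffer and 0.24 in conventional dendritic cells. As a mean of the cells' own CPM, the log2 ratio was -0.15 for Isg15 in Kupffer, -0.18 for Isg15 in endothelial and -0.14 for Rsad2 in endothelial cells. As a mean of the cells' own CPM, the median was 0.24 in conventional dendritic, -0.46 in CD4 T, -0.26 in other T and -0.0041 in endothelial cells. At the lower fold tried, the number of higher members was 7 in Kupffer, 10 in conventional dendritic, 13 in neutrophil, 1 in NK or ILC1, 3 in other T and 5 in B cells. At the lower fold tried, the number of lower members was 1 in Kupffer, 7 in conventional dendritic, 1 in plasmacytoid, 2 in neutrophil, 12 in NK or ILC1, 16 in CD8 T and 16 in other T cells. At a fold of 2, the number of higher members was 1 in Kupffer, 3 in monocyte or macrophage, 1 in conventional dendritic, 5 in plasmacytoid, 1 in neutrophil, 1 in CD4 T, 0 in B and 0 in endothelial cells. At a fold of 2, the number of lower members was 0 in monocyte or macrophage, 1 in conventional dendritic, 0 in neutrophil, 1 in NK or ILC1, 3 in CD8 T, 7 in CD4 T, 2 in other T and 0 in B cells. Without cells holding Gpnmb or Trem2, the median was 0.29 in monocyte or macrophage cells. Scaled to the median of all genes, the median was 0.64 in neutrophil and -0.24 in CD8 T cells. Without cells holding Irg1 or Slc7a11, the median was 0.59 in neutrophil cells. That value rests on 53 FL/FL and 93 ΔMAC cells and 8 measured members, against 26 members with all cells. Thinned to 500 UMIs, the carrying share was 0% in Kupffer FL/FL, 1.67% in Kupffer ΔMAC, 2.44% in plasmacytoid ΔMAC, 3.93% in neutrophil FL/FL, 6.29% in neutrophil ΔMAC, 1.02% in NK or ILC1 FL/FL, 0.691% in NK or ILC1 ΔMAC, 0.562% in CD8 T ΔMAC, 3.0% in CD4 T FL/FL and 1.35% in other T FL/FL cells. Thinned to 2000 UMIs, the carrying share was 22.6% in Kupffer ΔMAC, 14.2% in monocyte or macrophage ΔMAC, 10.0% in neutrophil FL/FL, 16% in neutrophil ΔMAC, 3.72% in NK or ILC1 FL/FL, 2.38% in NK or ILC1 ΔMAC, 4.41% in CD8 T FL/FL, 2.94% in CD8 T ΔMAC, 8.1% in CD4 T FL/FL, 4.36% in other T FL/FL, 1.08% in B FL/FL, 37.5% in endothelial FL/FL and 22.2% in endothelial ΔMAC cells. With 3 of 7 genes required, the carrying share was 3.03% in Kupffer ΔMAC, 0% in plasmacytoid FL/FL, 2.51% in neutrophil FL/FL, 4.46% in neutrophil ΔMAC, 1.2% in NK or ILC1 FL/FL, 0.705% in NK or ILC1 ΔMAC, 1.34% in CD8 T FL/FL, 0.663% in CD8 T ΔMAC, 3.03% in CD4 T FL/FL, 0.991% in other T FL/FL, 0.0474% in B FL/FL, 0.0445% in B ΔMAC and 2.56% in endothelial FL/FL cells. Without thinning, the carrying share was 17.1% in monocyte or macrophage FL/FL, 26.2% in monocyte or macrophage ΔMAC, 21.2% in conventional dendritic FL/FL, 21.99% in conventional dendritic ΔMAC, 6.25% in plasmacytoid FL/FL, 15.6% in plasmacytoid ΔMAC, 10.5% in neutrophil FL/FL, 18.1% in neutrophil ΔMAC, 8.4% in NK or ILC1 FL/FL, 7.14% in NK or ILC1 ΔMAC, 12.7% in CD8 T FL/FL, 9.08% in CD8 T ΔMAC, 14.5% in CD4 T FL/FL, 8.78% in CD4 T ΔMAC, 9.61% in other T FL/FL, 6.32% in other T ΔMAC, 2.1% in B FL/FL, 0.795% in B ΔMAC and 32.1% in endothelial FL/FL cells.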
